A study of Homo sapiens with 15 samples.

Results

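The 4 Polysome control libraries were set against the 4 Input control libraries of untreated HEK-293 cells, 8 of the 15 libraries of a series on the RNA-binding protein GEMIN5. They were chosen by their labelled fraction and treatment, with no measured value used. HEK-293 is an established human embryonic kidney cell line. Polysome RNA came from fractions 8 to 12 of 12 cut from a 10 to 50% sucrose gradient, where mRNAs carrying several ribosomes sediment. Input RNA came from cytoplasmic lysate. Both groups were exposed to cycloheximide, which stops ribosomes on the mRNA, at 0.1 mg/ml for 10 min, and neither was transfected. The remaining 7 libraries (4 Polysome GEMIN5 and 3 Input GEMIN5), from cells transfected with a GEMIN5 plasmid 24 h earlier, share the model fit and are cited at a few points. The labels call the samples independent biological samples but do not describe the separate cultures, and the p-values therefore cover no more than the spread among the libraries.

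An mRNA reaches the heavy fractions when several ribosomes translate it at the same time, so the ratio of polysome to Input reads is used as a measure of ribosome loading. Short coding sequences have room for few ribosomes. Some mRNA families are held off ribosomes as a class: those that start with a terminal oligopyrimidine tract (TOP mRNAs, which encode ribosomal proteins and translation factors) follow mTOR signalling through LARP1, and ferritin mRNAs are blocked when iron regulatory proteins bind a hairpin in the 5′ UTR. Upstream open reading frames (uORFs) in the 5′ UTR limit how many ribosomes reach the main coding sequence. The ratio is relative within each library, so it gives no absolute number of ribosomes.

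Of 12197 genes tested, 2937 were higher and 2328 were lower in Polysome control than in Input control (edgeR quasi-likelihood test, Benjamini-Hochberg adjusted p under 0.05). These are 24.1% and 19.1% of the genes tested, 43.2% in either direction, and the counts of each gene list below are read against them. The median log2 fold change of all genes was 0.02 after TMM scaling and 0.54 when libraries were scaled by their totals alone, so each direction is relative to the typical mRNA. With totals alone 6492 genes were higher and 560 lower, and the medians of the ribosomal protein, mitochondrially encoded, synthetase and cytosolic chaperone lists stayed below 0, while those of the initiation factor, iron, respiratory chain, mitochondrial ribosomal protein, proteasome, endoplasmic reticulum chaperone, DNA replication, ribosome biogenesis and SMN complex lists turned positive. Total counts were 11191417 to 14992806 in Polysome control and 13263269 to 17960319 in Input control, and the TMM factors were 1.27 to 1.55 in Polysome control and 0.971 to 1.03 in Input control. Of 16 HEK-293 markers, 14 had counts in every library of both groups. Counts of 25 liver genes summed to between 137.5 and 236.5 CPM before TMM scaling in Polysome control. In Input control they summed to 5.28 and 4.84 CPM in replicates 1 and 2, which held none for ALB. Replicates 3 and 4 of Input control had 149.5 and 140.6 CPM, within the Polysome range, so the Input group is split for these genes. Among 12 blood genes the sums were 14.9 to 20 CPM in Polysome control and 5.57 to 8.64 CPM in Input control. No liver or fibroblast gene was called, and 4 of 8 blood genes tested were higher (2 without Polysome control replicate 2, 3 or 4). Those genes are kept out of the genes named for the size of their change, and their part in other results was not tested.

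Sequences of the regulatory classes are shown because several of the named decreases fall in them. The 30-base windows of the 5′ UTR around the loop of the iron-responsive element motif were read from GENCODE v29 transcripts (GRCh38), with the loop CAGTGN in capitals.
FTH1: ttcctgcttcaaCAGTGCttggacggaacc
FTL: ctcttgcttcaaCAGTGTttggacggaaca
SLC40A1: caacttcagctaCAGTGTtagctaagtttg
EPAS1: tacaatcctcggCAGTGTcctgagactgta
The windows lie at chr11:61967573-61967602 on the minus strand (FTH1), chr19:48965335-48965364 on the plus strand (FTL), chr2:189580660-189580689 on the minus strand (SLC40A1) and chr2:46297479-46297508 on the plus strand (EPAS1). The motif searched, on the sense strand only, was a C, any 5 bases and CAGTGN, and 968 of 11672 5′ UTRs (8.29%) held it. Genes with the motif had a median log2 fold change of 0.11, and genes without it 0.01.

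Start sites of TOP mRNAs are shown with 10 bases before and 20 bases from the RefSeq start (GRCh38.p14), and the pyrimidine run that holds the start, from its first C on, is in capitals.
RPLP1: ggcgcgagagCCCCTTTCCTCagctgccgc
RPLP0: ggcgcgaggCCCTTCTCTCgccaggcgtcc
RPSA: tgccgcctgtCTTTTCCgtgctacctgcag
RACK1: gCTTTTCTCTCTCTCTTTCactgcaaggcg
TPT1: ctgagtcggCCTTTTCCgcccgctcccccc
LASP1: ggaggcggaggccagttccccagctccagc
LASP1, an actin-binding protein gene whose mRNA was among the most raised, is shown beside them and has no such run. The windows are chr15:69452808-69452837 (RPLP1, plus), chr12:120201092-120201121 (RPLP0, minus), chr3:39406710-39406739 (RPSA, plus), chr5:181243887-181243916 (RACK1, minus), chr13:45341164-45341193 (TPT1, minus) and chr17:38870048-38870077 (LASP1, plus).

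Ferritin mRNAs had some of the largest decreases among the named genes. FTH1, the ferritin heavy chain (chr11:61959718-61967634), had 175, 208, 134 and 155 CPM in Polysome control, against 3002, 3171, 3095 and 2808 CPM in Input control. FTL, the ferritin light chain (chr19:48965309-48966879), had 74.8, 78.9, 49.4 and 64.3 CPM in Polysome control, against 1182, 1238, 1231 and 1171 CPM in Input control. Neither gene's groups overlapped, and both had a log2 fold change of -4.17 (SE 0.20 for FTH1 and 0.21 for FTL, edgeR adjusted p = 1.63e-10 for each). From spliced reads alone the log2 fold changes were -4.15 and -4.21. Processed pseudogenes of FTH1 and FTL resemble the mRNAs closely, which makes the counts of these genes uncertain.

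Genes of iron metabolism moved in both directions. Of 14 listed and tested, FTH1 and FTL included, 2 were higher and 6 were lower in polysomes (3 and 3 with totals alone). EPAS1, which encodes the hypoxia factor HIF-2 alpha and whose motif is printed above, had 2.98, 2.52, 6.34 and 5.6 CPM in Polysome control against 2.24, 1.61, 1.86 and 2.32 CPM in Input control, a rise of 1.13 (SE 0.34, edgeR adjusted p = 0.011). Without Polysome control replicate 3 the adjusted p of EPAS1 was 0.054. SLC40A1, the iron exporter ferroportin, fell by 0.78 (SE 0.26, edgeR adjusted p = 0.023), a call that was lost without any one of 4 libraries (Input control 1 or 2, Polysome control 2 or 4, adjusted p 0.052 to 0.066). IREB2, an iron regulatory protein, rose by 0.79 (SE 0.22, adjusted p = 0.0061). TFRC, the transferrin receptor with iron-responsive elements in its 3′ UTR, had a value of -0.27 (SE 0.22, adjusted p = 0.34).

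Mitochondrially encoded mRNAs, which are translated inside mitochondria by mitochondrial ribosomes, were lower in polysomes for all 13 genes, with a median log2 fold change of -3.19. MT-ND3, a subunit of complex I, had 65.1, 76.5, 48 and 43.1 CPM in Polysome control, against 1072, 1127, 1129 and 882 CPM in Input control. Its groups were far apart, and it fell by 4.18 (SE 0.21, edgeR adjusted p = 1.63e-10). MT-CO2, a subunit of cytochrome oxidase, had 821, 623, 495 and 417 CPM in Polysome control, against 8582, 6324, 8025 and 6705 CPM in Input control. The smallest decrease of the 13 was 1.42 and the largest 4.18. Together they took 1.35, 0.892, 0.806 and 0.539% of counts in Polysome control, against 4.74, 3.93, 4.31 and 3.91% in Input control (exact two-sided permutation test, p = 0.0286, the smallest that 4 against 4 libraries allow, adjusted p = 0.0408 over 10 library measures). MT-ATP6 and MT-ATP8 overlap in part, so reads within the stretch they share cannot be told apart. Nuclear-encoded subunits of the respiratory chain moved little: 2 of 64 tested were higher and 15 lower, with a median of -0.17, and 78 were listed. Mitochondrial ribosomal proteins were higher for 1 and lower for 16 of 69 tested, with a median of -0.13. With totals alone 41 respiratory chain genes were higher and 0 lower, and 42 mitochondrial ribosomal protein genes were higher and 3 lower. Without Polysome control replicates 1 and 2 together, 30 respiratory chain and 27 mitochondrial ribosomal protein genes were lower.

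Ribosomal protein mRNAs were lower in polysomes almost without exception. Of 79 listed, 75 were tested, 70 were lower, none was higher and 5 did not pass, and the median log2 fold change was -1.03 against 0.02 over all genes. Their share of counts was 24.2, 25, 19.3 and 21.4% in Polysome control, against 35.3, 34.5, 35 and 34.1% in Input control (exact two-sided permutation test, p = 0.0286, adjusted p = 0.0408). Between Polysome control libraries the share varied by several points, while the Input control libraries lay close together.

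RPS2, a protein of the small subunit, had the largest decrease of the family, with 5487, 4999, 3369.9 and 3959 CPM in Polysome control against 24647, 24826, 25313 and 23506 CPM in Input control. It fell by 2.46 (SE 0.20, edgeR adjusted p = 6.7e-08). RPSA, the laminin-binding protein of the small subunit, had 1283, 1721, 1181 and 1387 CPM in Polysome control against 5771, 5858, 5884 and 5526 CPM in Input control, a log2 fold change of -2.05. The stalk proteins RPLP1 and RPLP0 had log2 fold changes of -1.87 (SE 0.19) and -1.77 (SE 0.19), with edgeR adjusted p = 7.2e-07 and 1.1e-06. At the other end, the 5 that did not pass were RPS15 (-0.41), RPL36A (-0.67), RPL22 (-0.27), FAU (-0.26) and RPS26 (-0.26). Gene counts of RPL22 and RPL36A were too low to stand for these mRNAs: RPL36A had 7 to 15 counts in Polysome control and 10 to 24 in Input control, but 36418 to 60380 spliced reads in Polysome control and 65193 to 90292 in Input control. In spliced reads RPL36A stood at -1.11 and RPL22 at -0.79. FAU had 1317, 1463, 971 and 1186 CPM in Polysome control, against 1437, 1558, 1518 and 1414 CPM in Input control, so its groups overlapped. Ribosomal protein genes have many near-identical processed pseudogenes, and how reads were shared among copies is not given in the sources used here. Spliced reads gave a median of -1.07 over all 75, against -0.18 over the 6644 genes with enough spliced reads. They do not settle how reads were shared among copies.

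Other TOP mRNAs were also lower or did not pass. Of 18 tested (19 listed), 12 were lower, none was higher, and the median was -1.03. TPT1, the translationally controlled tumour protein, had 1184, 1311, 890.0 and 961 CPM in Polysome control against 4404, 3913, 3907 and 3550.3 CPM in Input control. It fell by 1.86 (SE 0.16, edgeR adjusted p = 1.2e-07). RACK1, a scaffold protein of the small subunit, fell by 1.52 (SE 0.15), and EIF3L, a subunit of initiation factor 3, fell by 1.49 (SE 0.13), with edgeR adjusted p = 6.4e-07 and 1.6e-07. Promoters of 9863 tested genes were matched in the RefSeq table. A C at a listed start followed by at least 5 pyrimidines (sense strand, any listed start of the gene) was found in 569 of them (5.77%), in 44 of 60 ribosomal protein genes and in 11 of 12 other TOP genes. The 525 genes with such a start outside the ribosomal proteins had a median of -0.07 (118 higher, 125 lower), and the 16 ribosomal protein genes with no such start in the table had a median of -1.02.

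**Figure D1:**
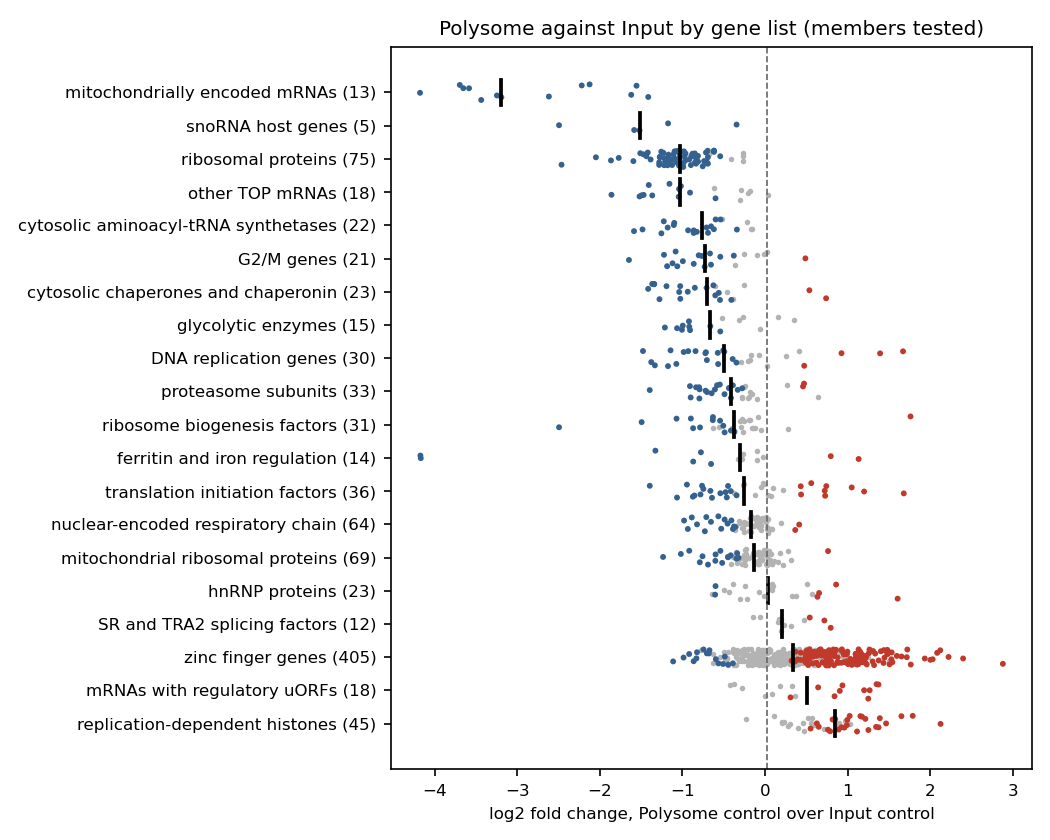
Log2 fold change of Polysome control over Input control (x axis) for each tested member (points) of 20 gene lists (rows, number tested in parentheses). Red and blue points passed the test as higher and lower, grey points did not, black bars are list medians and the dashed line is the median of all genes. Ribosomal proteins centre at -1.03, mitochondrially encoded mRNAs at -3.19 and replication-dependent histones at 0.85.

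The translation machinery beyond TOP mRNAs was divided. Of 36 initiation factors, 9 were higher and 16 were lower, with a median of -0.26, and with totals alone 15 were higher and 3 lower. EIF3D, a cap-binding subunit of initiation factor 3, had 108, 147, 176 and 199 CPM in Polysome control against 408, 376, 435 and 441 CPM in Input control (log2 fold change -1.40, SE 0.16, edgeR adjusted p = 3e-06). EIF4H, a partner of the helicase EIF4A, had 240.1, 273, 302 and 299 CPM in Polysome control against 87.8, 85.4, 87.6 and 87.2 CPM in Input control (log2 fold change 1.68, SE 0.13, edgeR adjusted p = 5.1e-08). EIF4G2, a relative of the scaffold EIF4G1 that lacks its cap-binding partner site, rose by 1.20 (SE 0.14, edgeR adjusted p = 2.3e-06). Cytosolic aminoacyl-tRNA synthetases, which charge tRNAs, were lower for 18 of 22 tested and higher for none. The median over these was -0.77, and with totals alone 7 were lower and 1 was higher. QARS1, the glutaminyl enzyme, fell by 1.59 (SE 0.11, edgeR adjusted p = 1.2e-08).

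Host genes of small nucleolar RNAs were lower for all 5 measured of 19 listed, and for 4 of them without any 1 Input control library. All 5 have a coding transcript, and most are counted in other lists too. RACK1 is also counted with the TOP mRNAs, EIF4A2 with the initiation factors and RPL23A with the ribosomal proteins. NOP56, a core protein of box C/D snoRNPs and itself a snoRNA host, had 84, 109.6, 124 and 117 CPM in Polysome control against 604, 655, 618 and 569 CPM in Input control. It fell by 2.49 (SE 0.14, edgeR adjusted p = 7.4e-10), and spliced reads gave -2.92. Of 31 ribosome biogenesis factors tested, 13 were lower and 1 was higher, with a median of -0.37, and with totals alone 2 were lower and 4 higher. The lowest value of that list, -2.49, is the same as that of NOP56.

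Chaperone, glycolysis, proteasome and mitosis genes were called lower more often than higher after TMM scaling. Cytosolic chaperones were lower for 17 of 23 and higher for 2, with a median of -0.71. CCT3, a subunit of the chaperonin, had 256, 442, 463 and 480.0 CPM in Polysome control against 1038, 1145, 1104 and 1092 CPM in Input control, and fell by 1.42 (SE 0.17, edgeR adjusted p = 3.3e-06). HSP90AB1, the constitutive HSP90, fell by 1.37 (SE 0.18, adjusted p = 9.3e-06). Glycolytic enzymes were lower for 9 of 15 and higher for none (median -0.66), among them ENO1, the enolase, which fell by 1.07 (SE 0.21, adjusted p = 0.00058). Proteasome subunits were lower for 19 of 33 and higher for 2 (median -0.41). Genes of G2 and mitosis were lower for 15 of 21 and higher for 1 (median -0.73), and KIF20A, a kinesin of cytokinesis, fell by 1.65 (SE 0.15, adjusted p = 1.6e-07). Endoplasmic reticulum chaperones were lower for 7 of 20 and higher for 1. HSP90B1, the HSP90 of that compartment, fell by 1.59 (SE 0.12, adjusted p = 4.4e-08). With totals alone the calls were 6 lower and 2 higher for cytosolic chaperones, 3 lower and 2 higher for glycolysis, 1 lower and 9 higher for the proteasome, 5 lower and 3 higher for mitosis genes, and 2 lower and 7 higher for endoplasmic reticulum chaperones.

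DNA replication genes went both ways. Of 30 tested, 18 were lower and 4 were higher, and with totals alone 6 were lower and 9 higher. MCM7, part of the replicative helicase, fell by 1.48 (SE 0.21, edgeR adjusted p = 1.9e-05), with 82, 161, 200.5 and 203 CPM in Polysome control against 418, 466, 451 and 464 CPM in Input control. GINS1, which binds the same helicase, rose by 1.67 (SE 0.18, adjusted p = 1.6e-06), with 19.2, 26.2, 29.6 and 25.5 CPM in Polysome control against 8.56, 8.49, 6.35 and 8.2 CPM in Input control.

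Selenoprotein mRNAs, which read a UGA codon as selenocysteine, also divided: 4 of 17 tested were higher and 7 were lower, with 2 higher when Input control replicate 2, 3 or 4 or Polysome control replicate 1 was left out. SELENOW fell by 1.94 (SE 0.23, edgeR adjusted p = 2.7e-06) and GPX4, the lipid peroxide reductase, fell by 1.01 (SE 0.22, adjusted p = 0.0013). GEMIN5 itself had 4.19, 5.57, 6.25 and 7.18 CPM in Polysome control against 12.4, 14.8, 12.6 and 15.9 CPM in Input control, and fell by 1.26 (SE 0.18, adjusted p = 2.6e-05). Of 9 SMN complex genes tested, 4 were lower and none was higher, and with totals alone 2 were lower and 5 higher.

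mRNAs with known regulatory uORFs were called higher more often than lower in these untreated cells. Of 18 tested (19 listed), 10 were higher, none was lower, and the median was 0.50. SLC35A4, a transporter gene with a long uORF, had 75.4, 71.7, 75.3 and 65.6 CPM in Polysome control against 28.8, 29.5, 26.7 and 28.1 CPM in Input control. It rose by 1.35 (SE 0.11, edgeR adjusted p = 6e-08). MIEF1, whose uORF encodes a mitochondrial microprotein, rose by 1.37 (SE 0.15, adjusted p = 1.4e-06), and PPP1R15B, a subunit of the constitutive eIF2 alpha phosphatase, rose by 1.27 (SE 0.23, adjusted p = 0.00028). The stress-response factors gave other values. ATF4 had 1127, 760.4, 820.1 and 745 CPM in Polysome control against 1188, 1017, 1136 and 1141 CPM in Input control, a difference of -0.38 (SE 0.16, adjusted p = 0.072 by edgeR) that passed as lower without Polysome control replicate 1 (-0.53, adjusted p = 0.011). DDIT3 stood at -0.42 (SE 0.26, adjusted p = 0.2), and passed as lower without Input control replicate 2 (-0.64, adjusted p = 0.034). PPP1R15A, the stress-induced phosphatase subunit, stood at -0.01 (SE 0.26, adjusted p = 0.99). ATF5 rose by 0.94 (SE 0.18, adjusted p = 0.00035).

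Polyamine genes, several of which are controlled in translation by polyamine levels, were mixed, with 3 of 10 tested higher and 2 lower. ODC1, the first enzyme of the pathway, had 247, 271, 244 and 258 CPM in Polysome control against 385, 389, 365 and 352 CPM in Input control, and fell by 0.55 (SE 0.10, edgeR adjusted p = 0.00031). AZIN1, which protects ODC1 from its antizyme, rose by 1.25 (SE 0.15, adjusted p = 5.1e-06), and the antizyme OAZ2 rose by 0.51 (SE 0.10, adjusted p = 0.00049). SRM, the spermidine synthase, fell by 0.63 (SE 0.23, adjusted p = 0.034), which was lost without any one of 5 libraries (Input control 2, 3 or 4, Polysome control 3 or 4, adjusted p 0.061 to 0.097). AMD1, with a uORF that senses polyamines, stood at 0.08 (SE 0.11, adjusted p = 0.58).

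**Figure D2:**
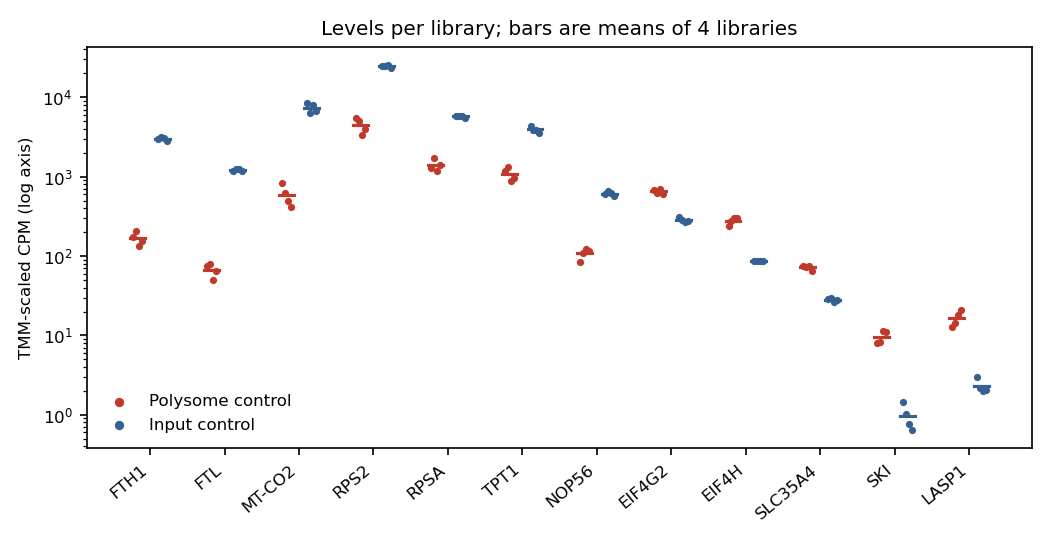
TMM-scaled CPM (log axis) of 12 named genes in each Polysome control library (red, left) and each Input control library (blue, right), with bars at the means of 4 libraries. The genes were picked for the figure, and in all 12 the groups do not overlap. Over all 12197 genes tested the groups did not overlap for 22.5% (higher in polysomes) and 21% (lower). FTH1 lies between 134 and 208 CPM in Polysome control and between 2808 and 3171 CPM in Input control.

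The named genes with large increases had varied roles. SKI, a corepressor of TGF-beta signalling (chr1:2227388-2310213), had 7.93, 8.14, 11.5 and 11.1 CPM in Polysome control against 1.47, 1.03, 0.759 and 0.653 CPM in Input control, and rose by 3.30 (SE 0.28, edgeR adjusted p = 7.9e-08). LASP1 had 12.8, 14.1, 17.9 and 20.7 CPM in Polysome control against 3.01, 2.18, 2 and 2.03 CPM in Input control, and rose by 2.83 (SE 0.23, adjusted p = 5.1e-08). SOX4, a developmental transcription factor, rose by 2.80 (SE 0.36, adjusted p = 8.3e-06). FBXL19, which recruits complexes to CpG islands, rose by 2.87 (SE 0.22), PPP1R9B, a phosphatase scaffold, by 3.01 (SE 0.28), RTL6, a retrotransposon-derived gene, by 3.12 (SE 0.30) and UBN1, a subunit of a histone H3.3 chaperone, by 2.73 (SE 0.34). C12orf75 was among the 10 largest decreases by the naming rule, at -2.78 (SE 0.21).

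The 3 largest increases by the naming rule came with almost no spliced reads. HFM1, a meiotic helicase, had 10246, 7365, 6024 and 12457 CPM in Polysome control against 185, 109.7, 258 and 229 CPM in Input control (log2 fold change 5.53, SE 0.31, edgeR adjusted p = 7.4e-10). SLCO5A1 and PDE3A rose by 5.32 (SE 0.35) and 4.09 (SE 0.25). No exon event of these genes had more than 4, 5 and 3 corrected reads (HFM1, SLCO5A1 and PDE3A) in any control library. HFM1 took 1.44, 0.935, 0.936 and 1.8% of all counts in Polysome control, against 0.0181, 0.0106, 0.0253 and 0.0236% in Input control. The deposited gene length equals the whole gene span, and whether reads in introns or of other RNAs within these genes were counted is not given in the sources used here. These increases are therefore given only as counts in a gene's span, and whether they reflect levels of its mRNA was not tested.

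Zinc finger genes, the largest family of transcription factors, were higher for 140 and lower for 16 of 405 tested (554 listed), with a median of 0.34. Only 56 of them had at least 20 spliced reads in every control library. The median of those 56 in spliced reads was -0.12, against -0.18 over all genes with such reads. Their median in gene counts is not given, so the change of readout and the change of genes are not told apart here. ZKSCAN8 rose by 2.88 (SE 0.49, edgeR adjusted p = 0.00012). Among 32 immediate early and short-lived mRNAs 9 were higher and 3 were lower, with KLF6 up by 1.94 (SE 0.36, adjusted p = 0.00027) and ZFP36L2, a decay factor of AU-rich mRNAs, up by 1.46 (SE 0.22, adjusted p = 4.2e-05). Of 26 tested genes in a list of other autoregulated RNA-binding proteins, 6 were higher and 9 were lower (10 and 2 with totals alone). That list also names kinases (CLK1, CLK2 and CLK4) and cyclins (CCNL1 and CCNL2), and whether each member controls its own mRNA was not tested. TARDBP, an RNA-binding protein that controls its own mRNA, had 156, 196, 194 and 197 CPM in Polysome control against 74, 76.8, 66.9 and 68.1 CPM in Input control, and rose by 1.38 (SE 0.18, adjusted p = 7.9e-06). DDX5, an RNA helicase in the same list, fell by 1.33 (SE 0.16, adjusted p = 5.1e-06). SR and TRA2 splicing factors were higher for 3 of 12 and lower for none. Among 23 hnRNP genes 4 were higher and 2 lower, and among 20 nonsense-mediated decay factors 7 were higher and 4 lower. Without Polysome control replicate 1, 5 SR and TRA2 genes and 8 hnRNP genes were higher. TUG1, a long noncoding RNA, rose by 1.95 (SE 0.19, adjusted p = 4.3e-07).

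Replication-dependent histone mRNAs, which normally end in a stem-loop and not in a poly(A) tail, were higher for 25 of 45 tested and lower for none (68 listed), with a median of 0.85. Without Polysome control replicates 1 and 2 together, 9 were higher. H1-4, a linker histone, had 14.9, 13.3, 8.49 and 13.3 CPM in Polysome control against 2.08, 3.1, 2.76 and 3.41 CPM in Input control, and rose by 2.12 (SE 0.21, edgeR adjusted p = 4.9e-07). The libraries were made with a poly(A) kit, so only the part of these mRNAs that the kit retains was measured. Histone genes took 0.0544, 0.0553, 0.0468 and 0.0478% of counts in Polysome control, against 0.0228, 0.0274, 0.0251 and 0.0264% in Input control. Copies of histone genes are near-identical, which makes the value of a single gene uncertain.

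Across genes, loading followed the length of the 3′ UTR more than that of the coding sequence. Over 12092 genes with a principal coding transcript, Spearman's rho between the log2 fold change and 3′ UTR length was 0.41, and with coding length it was 0.06. Genes are not independent replicates, and no p is given. The 1453 genes with 3′ UTRs under 200 nt had a median of -0.28 (7.43% higher, 35.4% lower), and the 1326 genes with 3′ UTRs of at least 4000 nt had a median of 0.41 (41.5% higher, 8.75% lower). Coding sequences under 300 nt gave a median of -0.09 and those of at least 4000 nt gave 0.12. The 41 very large proteins listed (cytoskeletal, ubiquitin ligase and chromatin proteins) had a median of -0.39, with 5 higher and 17 lower (10 and 8 with totals alone). The higher ones were 3 without Input control replicate 2, 8 without Polysome control replicate 2 and 1 without Polysome control replicate 4. DYNC1H1, the dynein heavy chain, stood at -1.75 and KMT2D, a histone methyltransferase, at 2.82. Small membrane proteins and thymosins, at the other end of the coding lengths, had a median of -0.09, with 5 higher and 4 lower of 29 tested. Leaving out any 1 of the 8 libraries moved at least 1 of these counts by over 1.5 times. Within each of 7 ranges of coding length, genes with 3′ UTRs of at least 2000 nt had a higher median than genes with 3′ UTRs under 500 nt: from 1500 nt to below 2500 nt the medians were 0.53 (1022 genes) and -0.29 (854 genes). For 5′ UTR length rho was 0.16, for the number of exons -0.11, and for the Input level -0.35, a quantity that shares the Input libraries with the fold change.

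Spliced reads, counted over introns of the principal transcripts, gave a smaller relation. They followed the gene counts closely over 6644 genes with at least 20 spliced reads in every control library (rho 0.95). For those genes rho with 3′ UTR length was 0.31 in spliced reads and 0.40 in gene counts. The median of spliced reads was -0.39 for 3′ UTRs under 200 nt and -0.08 for those of at least 4000 nt. With coding length rho was -0.06 in spliced reads, and their medians were -0.14 for coding sequences under 300 nt and -0.17 for those of at least 4000 nt. Polysome control libraries held 72.1, 73.1, 69.9 and 70.6 spliced reads per 100 counts, against 77.7, 78.7, 78.3 and 77.8 in Input control (exact two-sided permutation test, p = 0.0286, adjusted p = 0.0408). The polysome libraries also varied in coverage along transcripts: the log2 ratio of spliced reads between the last and the first junction of a transcript had a median over 1044 genes of 1.15, 1.54, 0.753 and 1.28 in Polysome control, against 0.833, 0.742, 0.807 and 0.82 in Input control (exact two-sided permutation test, p = 0.114, adjusted p = 0.143). Replicate 3 of Polysome control lay within the Input range and the other 3 above it, and the part of this in the relation with 3′ UTR length was not tested. Without Polysome control replicates 1 and 2, rho with 3′ UTR length was 0.44 and with coding length 0.19.

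**Figure D3:**
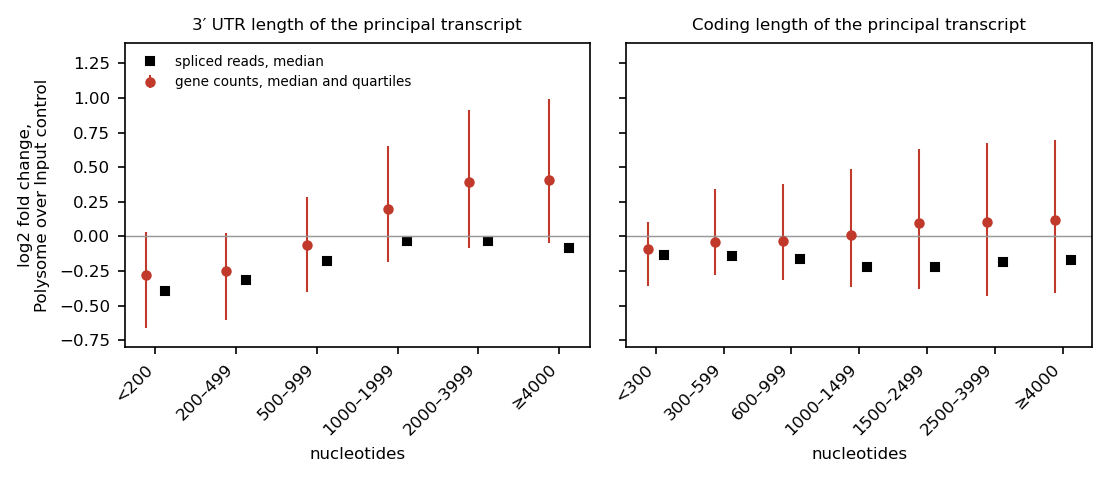
Median log2 fold change of Polysome control over Input control (y axis) by length in nucleotides (x axis) of the 3′ UTR (left) and the coding sequence (right). Red circles are gene counts with the lower and upper quartiles, and black squares are spliced reads. In gene counts the median runs between -0.28 and 0.41 over the 3′ UTR ranges and between -0.09 and 0.12 over the coding ranges.

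**Figure D4:**
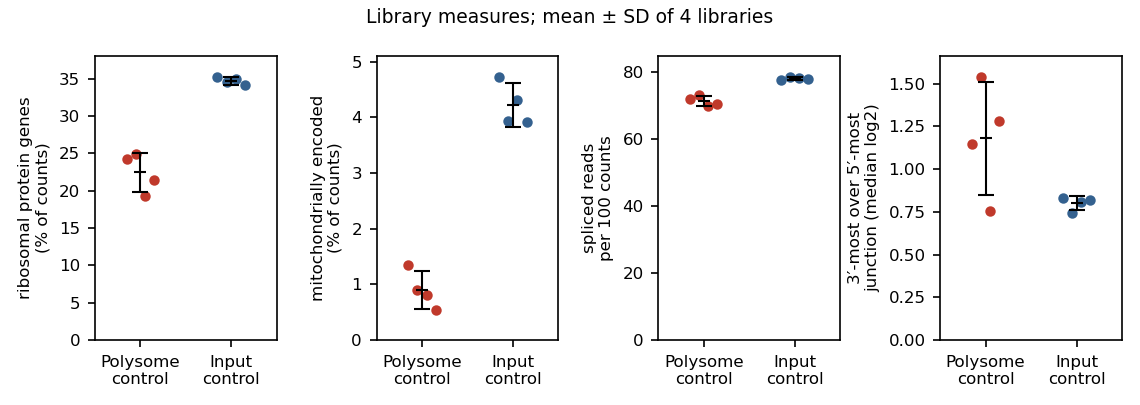
Share of counts in ribosomal protein genes and in mitochondrially encoded genes, spliced reads per 100 counts, and median log2 ratio of the last to the first junction, in each Polysome control library (red, left) and Input control library (blue, right), with mean ± SD of 4. The groups are apart in the left 3 panels and overlap in the junction ratio, where Polysome control ranges between 0.753 and 1.54.

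Splicing is given as percent spliced in (PSI), the share of corrected reads that include an exon, intron or longer splice site. Of 16112 events tested, 3 passed at an adjusted p under 0.05 (limma on log2 odds), which is 0.0186%, and 1352 (8.39%) had an unadjusted p under 0.05. With no filter on the PSI range, the number of events called was 1669. The median PSI difference was 0.05 points, and 95.2% of events differed by less than 10 points. Depth limits these tests: in simulated data at the same depths, changes of 10, 20 and 30 points were recovered in 2.99, 23.9 and 63.6% of cases. The simulation gave all events the same extra spread and moved only events of middle PSI. It tested 12928 events, so its rates may not carry over to the real events.

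The called events were in SPC24 and UBAP2L. SPC24, a subunit of the kinetochore complex NDC80, has alternative 5′ splice sites that differ by 52 nt. The end of the exon (chr19:11147818-11147894, minus strand, GRCh38) is printed with the stretch that only the longer form keeps in capitals.
SPC24: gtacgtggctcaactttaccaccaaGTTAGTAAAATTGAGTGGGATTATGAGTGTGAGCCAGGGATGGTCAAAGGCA
The longer form had a PSI of 89.5, 89.5, 91.9 and 88.9 in Polysome control, against 50.7, 60.7, 53.6 and 58.3 in Input control, from 33 to 46 corrected reads per library in polysomes and 12 to 26 in Input. It was 34.1 points higher in polysomes (limma adjusted p = 0.026), and its mirror image, the shorter form, gave the adjusted p of 0.018. UBAP2L, an RNA-binding protein of stress granules, has an intron of 917 nt (chr1:154259031-154259947) that was retained in 4.55, 0.85, 0.79 and 1.12% in Polysome control, against 27.9, 26.7, 20 and 32.2% in Input control. The difference was -24.9 points (limma adjusted p = 0.043). With at least 20 reads per library no event was called (UBAP2L adjusted p = 0.07, SPC24 not tested). Each call was lost without any one of 7 libraries: without 1 library the adjusted p ranged between 0.029 and 0.13 for SPC24 and between 0.0073 and 0.20 for UBAP2L.

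By size, without a test, 58 events (0.36%) differed by at least 15 points with at least 5 points between the groups, 31 (0.192%) higher and 27 (0.168%) lower. The count was 83 to 118 when 1 library was left out, and 36 at 20 reads. They were 28 exons, 17 retained introns, 10 alternative 5′ and 3 alternative 3′ splice sites, where both forms of a site count. The events named here were picked after their values were seen. An intron of RPS2 was retained in 44.4, 42.8, 37.5 and 31.1% of reads in Polysome control, against 13.9, 17.4, 18.5 and 22.1% in Input control, from at least 896 reads per library (limma adjusted p = 0.23). An intron of EEF1B2, which encodes a translation elongation factor, was retained in 48, 50.8, 50.5 and 49.5% in Polysome control, against 64.6, 65.3, 67.7 and 66% in Input control (adjusted p = 0.35). An exon of ALAS1, the enzyme that begins haem synthesis, had a PSI of 81.8, 52.9, 69 and 70.8 in Polysome control, against 37, 46, 40.4 and 27.3 in Input control (adjusted p = 0.31).

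Retained introns as a class showed no shift that these data resolve. Of 1764 tested, 8 were higher and 9 lower by size, and the median difference was 0.17 points. Median PSI over 1765 variable introns was 6.38, 6.45, 5.95 and 6.38 in Polysome control, against 6.67, 6.25, 6.18 and 6.25 in Input control (exact two-sided permutation test, p = 0.743). Introns up to 500 nt had a median difference of 0.07 points and longer ones 0.24 points. Exons whose length is not a multiple of 3, and so shift the reading frame, had a median difference of 0.09 points over 5115 events, against 0.02 points over 3401 exons that keep it. Exons of 3 to 27 nt had none past the size rule among 97.

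**Figure D5:**
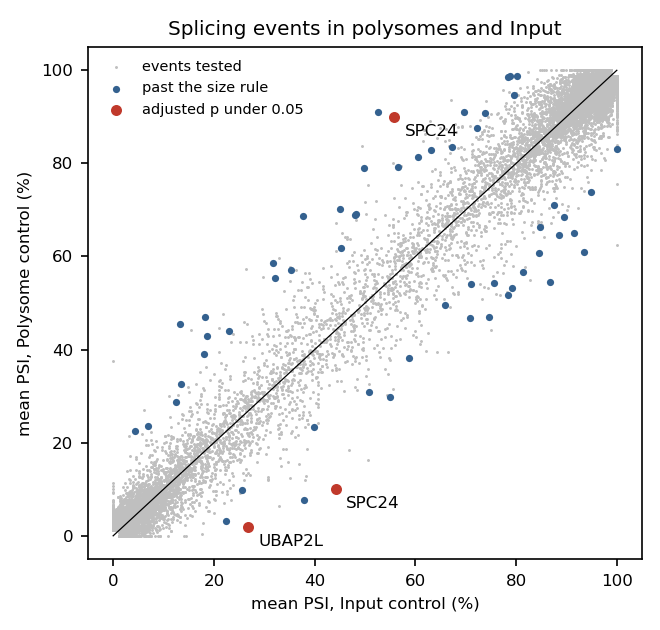
Mean PSI in Polysome control (y axis, %) against mean PSI in Input control (x axis, %) for each tested event (grey), events past the size rule (blue) and events with an adjusted p under 0.05 (red), with the line of equality. SPC24 appears as 2 mirror points 34.1 points off the line, and UBAP2L lies below it, at a difference of -24.9 points.

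The same contrast in GEMIN5 cells used other libraries. Its log2 fold changes followed those of control cells over 12197 genes (rho 0.72), and rho with 3′ UTR length was 0.40. The log2 fold change of FTH1 was -5.19 in GEMIN5 cells, against -4.17 in control cells. For FTL it was -5.85 in GEMIN5 cells, against -4.17 in control cells, and for RPS2 -4.45 in GEMIN5 cells, against -2.46 in control cells. Those cells were also transfected, so GEMIN5 and transfection cannot be told apart. The TMM factors were 0.354 to 0.488 in Input GEMIN5 and 1.34 to 1.53 in Polysome GEMIN5, further apart than in control cells. The size of the values in GEMIN5 cells therefore depends on the scaling, and totals alone were not tried for them.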

How the data were processed

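The authors deposited raw read counts for 21519 genes (STAR 2.7.10a and featureCounts, GRCh38, per the submitters' processing notes). Counting options are not stated. A second deposited table from the authors holds percent spliced in (PSI) for 721551 events. Its quality column, deposited by the authors as text of the unit other, carries corrected inclusion and exclusion reads. Kits were stranded and poly(A)-selecting, per the labels' protocols.

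Genes passing filterByExpr went through TMM scaling and 1 robust quasi-likelihood model of 15 libraries (edgeR 4.0.16, R 4.3.3). CPM values are TMM-scaled. An event needed 10 corrected reads in all 8 control libraries, one PSI of 5 or more and one of 95 or less. Its log2 odds, with 0.5 added, were tested with limma 3.58.1. Spliced reads are exclusion reads over 165168 introns of GENCODE v29 principal transcripts, with 1 added. DESeq2 1.42.0 served as an alternative. Among 10 library measures, the HFM1 and SLCO5A1 shares and spliced reads per 100 counts were added after values were seen. SciPy 1.17.1 ran the permutation tests and matplotlib 3.10.9 drew the figures. All sample columns were mapped, with 0 left over.

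Simulated data of 11644 genes in 8 libraries returned 46.3% of 67 genes changed 1.5-fold, 89.6% of 67 changed 2-fold and 98.5% of 66 changed 4-fold. Of 169 calls, 13 were of unchanged genes. Far fewer genes were changed there than were called in the real data, where the model used 15 libraries. These rates may therefore not carry over to the real contrast.

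The comparison, gene lists and tests were chosen with earlier results of these data known. Named genes were the 10 called genes that changed most, up and down (mean of 5 CPM or more, no overlap, no clone-based symbol, no liver, blood or fibroblast marker) and up to 3 called members of each list. Any member of the ribosomal protein, mitochondrially encoded, polyamine, iron and uORF lists could be named. A part of these is printed, and ALAS1, EEF1B2 and the other events by size were picked after their values were seen. Some list members are counted but not reported here.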

Additional observations from a re-analysis of the deposited data

Results flagged for a closer look

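Single libraries stood apart from the other 3 of their group in 9 of 172 groups looked at, where chance flags about 1 in 20. Polysome control replicate 1 was low for CCT3 (256 CPM), TARDBP (156 CPM) and DDX5 (60.1 CPM). Polysome control replicate 2 was low for TUG1 (11.8 CPM). Input control replicate 3 was low for GINS1 (6.35 CPM), and Input control replicate 2 was low for DDIT3 (5.68 CPM) and high for DDX5 (263 CPM). The median PSI of variable retained introns was low in Polysome control replicate 3 (5.95) and high in Input control replicate 1 (6.67).

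The polysome contrast differed between GEMIN5 and control cells for 4553 of 12197 genes (37.3%, edgeR interaction test, adjusted p under 0.05). The difference, GEMIN5 minus control cells on the log2 scale, was -1.02 for FTH1 (adjusted p = 0.0047), -1.68 for FTL (adjusted p = 8.0e-05) and -1.99 for RPS2 (adjusted p = 2.9e-05). These differences and the 4553 calls were computed with TMM scaling only. They depend on it, since the TMM factors were 0.354 to 0.488 in Input GEMIN5 and 1.34 to 1.53 in Polysome GEMIN5.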

How the results depend on the processing

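Scaling by totals alone gave 6492 genes higher and 560 lower, a ribosomal protein median of -0.52 and a zinc finger median of 0.86. It turned the medians positive for initiation factors (0.26), iron genes (0.22), the respiratory chain (0.34), mitochondrial ribosomal proteins (0.38), small membrane proteins (0.41), giant proteins (0.14), surface receptors (0.53), endoplasmic reticulum chaperones (0.33), autoregulated RNA-binding proteins (0.24), nonsense-mediated decay factors (0.49), proteasome (0.10), actin and tubulin (0.0621), DNA replication (0.0140), cholesterol synthesis (0.17), ribosome biogenesis (0.14) and the SMN complex (0.31), and the values of PCBP2 (0.50) and SMOX (0.51). By the other gene settings 2002 to 3220 genes were higher and 1622 to 2701 lower. Alternatives chosen after seeing the data left out Polysome control replicates 1 and 2, or used spliced reads. Without those replicates the medians turned for selenoproteins (-0.0522), import subunits (-0.23) and decay factors (0.19). In spliced reads the zinc finger median was -0.12, over 56 genes only. Leaving out the liver, blood and fibroblast lists moved neither the count of genes higher nor that of genes lower by over 1.5 times. With only 23 liver, 8 blood and 4 fibroblast genes tested it could not have done so. It is therefore no check on the part of those genes in other results. The Spearman correlation with 3′ UTR length was 0.304 with no filter and 0.311 in spliced reads. Leaving out 1 library gave 2473 to 3115 genes higher, 2017 to 2355 lower, 0 to 7 events called and 83 to 118 by size. Events called were 0 at 20 reads and 1669 with no filter on the PSI range, where read depth alone can move the log2 odds. Events by size were 36 at 20 reads and 204 with Input control replicates 3 and 4 only. The causes were not tested. Same-numbered libraries correlated at -0.02, 0.28, -0.13 and 0.16 in their deviations, which does not show that the numbers pair the samples, and the labels give no pairing. The replicate block gave 3033 genes higher, 2530 lower and 0 events called. Of 230 named genes, 203 were called and 167 kept the call under every alternative.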
